A study of Mus musculus with 22 samples.

Results

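The 10 genes described here encode heterogeneous nuclear ribonucleoproteins other than those of the A/B group, and they were examined as RNA targets of hnRNP A1. They are *Hnrnpc*, *Hnrnpf*, *Hnrnph1*, *Hnrnpk*, *Hnrnpl*, *Hnrnpm*, *Hnrnpr*, *Hnrnpu*, *Hnrnpul1* and *Hnrnpul2*. A footprint, meaning a genomic interval kept as a putative hnRNP A1 binding site, was assigned to a gene when it overlapped the annotated gene span in GRCm38 by at least 1 nt. Of the 136207 footprints from 10 mice, 318 lay in these genes. The lists hold positions only, without strand, score or read count, so read depth at any footprint is unknown and a gene without a footprint is one where none was retained.

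The footprints came from CLIPseq, in which RNA is crosslinked to protein with UV light, digested with RNase I and immunoprecipitated with an antibody to hnRNP A1, here from spinal cords of wild-type female C57Bl/6 mice. They were 3 naïve mice (Naïve_1 to Naïve_3), 3 mice with mild experimental autoimmune encephalomyelitis (EAE) and 4 mice with severe EAE, with 1 immunoprecipitation from each. EAE is a model of multiple sclerosis, induced here by immunization with a peptide of myelin oligodendrocyte glycoprotein, MOG(35-55), emulsified with complete Freund's adjuvant, and by pertussis toxin, and the cords were taken 15 days after clinical onset. The immunization protocol gives an age of 12 weeks and the study's design text gives 8 weeks, and the naïve controls were of matched age. The mild group held EAE_3 and EAE_4, each with a clinical score of 1.5, and EAE_7 with a score of 1.0, whereas the severe group held EAE_1 and EAE_5 with scores of 2.5 and EAE_2 and EAE_6 with scores of 3.0. Clones of the antibody are named differently in the labels (9H10) and in the methods (4B10).

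hnRNPs coat nascent RNA and take part in splicing, export, stability and transport of messenger RNA, and each prefers different sequences. hnRNP A1 is best known for binding UAG-containing sites and for blocking the use of nearby exons. Many hnRNPs also act on transcripts of their own family, often through alternative or retained segments whose inclusion lowers the protein. In the nervous system hnRNP R and hnRNP K are known for their part in axonal RNA transport and neuronal gene expression.

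The stretches below are those covered in the most mice for 8 of the genes, and they show where along each transcript the footprints recurred. *Hnrnpk* exon 5 and *Hnrnph1* exon 3, which were footprinted in EAE mice only, were added after their patterns were seen. The first 6 nt of the *Hnrnpk* exon 4 stretch precede the start codon. The stretches are written on the strand of the gene, 5′ to 3′, from GRCm38, with the letters TAG (UAG in RNA) in capitals.
Hnrnpk exon 4, chr13:58400333-58400396, minus strand, 8 mice: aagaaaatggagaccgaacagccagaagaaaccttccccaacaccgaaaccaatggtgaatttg
Hnrnpk exon 5, chr13:58399925-58399990, minus strand, 5 EAE mice: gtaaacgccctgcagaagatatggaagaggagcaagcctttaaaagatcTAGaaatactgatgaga
Hnrnpl intron 6, chr7:28816504-28816619, plus strand, 7 mice: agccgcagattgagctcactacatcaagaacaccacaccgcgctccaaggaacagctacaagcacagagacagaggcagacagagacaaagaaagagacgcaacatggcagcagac
Hnrnph1 exon 2, chr11:50378331-50378403, plus strand, 3 naïve mice: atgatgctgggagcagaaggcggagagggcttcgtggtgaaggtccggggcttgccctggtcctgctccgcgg
Hnrnph1 exon 3, chr11:50379554-50379623, plus strand, 3 EAE mice: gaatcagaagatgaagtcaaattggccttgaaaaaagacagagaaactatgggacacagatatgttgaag
Hnrnpm exon 7, chr17:33665511-33665645, minus strand, 5 mice: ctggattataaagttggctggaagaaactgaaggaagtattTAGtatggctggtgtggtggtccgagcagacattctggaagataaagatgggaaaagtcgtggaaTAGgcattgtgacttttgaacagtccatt
Hnrnpu exon 6, chr1:178333003-178333096, minus strand, 6 mice: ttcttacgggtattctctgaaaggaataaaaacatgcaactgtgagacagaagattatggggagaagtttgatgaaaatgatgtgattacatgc
Hnrnpul1 exon 4, chr7:25746349-25746401, minus strand, 5 mice: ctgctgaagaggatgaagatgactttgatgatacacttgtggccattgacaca
Hnrnpul2 exon 14, chr19:8831455-8831488, plus strand, 6 mice: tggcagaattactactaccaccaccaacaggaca
Hnrnpf exon 4, chr6:117924233-117924334, plus strand, 2 naïve mice: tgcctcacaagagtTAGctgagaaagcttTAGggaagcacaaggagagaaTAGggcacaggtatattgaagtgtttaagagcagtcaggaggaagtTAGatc
Of these, the *Hnrnpf* stretch held 4 UAG, the *Hnrnpm* stretch held 2 and *Hnrnpk* exon 5 held 1, while the other stretches held 0.

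The libraries differed widely before any gene was considered. The naïve lists held 17119 to 17494 footprints and the mild EAE lists 9751 to 24433, whereas in the severe group EAE_5 had 31870 and EAE_1, EAE_6 and EAE_2 had 2670, 673 and 209. Footprints in marker genes of neurons, oligodendrocytes and astrocytes were found in naïve and in EAE cords (4 of 4, 4 of 4 and 3 of 3 genes in both). Their summed cover was uneven: neuron markers had 468 to 1766 nt in naïve mice and 22, 0 and 0 nt in EAE_1, EAE_2 and EAE_6, and oligodendrocyte markers had 1493 to 5757 nt and 733, 154 and 67 nt. Astrocyte markers had 1015 to 3198 nt in naïve mice and 1392, 0 and 176 nt in those 3 mice, which were also at or near 0 in the 10 genes. Markers of leukocytes and microglia (*Ptprc*, *Cd74*, *Lyz2*, *Itgam*, *C1qa*) were at 0 nt in all naïve mice and had footprints in EAE for 5 of 5 genes, with a summed cover of 962 to 1768 nt in mild and 0 to 2184 nt in severe EAE. In EAE_5, with the longest list, neuron, oligodendrocyte and astrocyte markers had 3129, 8239 and 9177 nt, above every naïve mouse. Mild EAE mice had 673 to 2429, 1703 to 4450 and 2333 to 4750 nt. These sums were not scaled to list size. Fewer cells of a type, less RNA per cell and a shorter list cannot be told apart in whole cord. The part of these shifts in the values below was not tested.

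Footprint numbers in the 10 genes varied as widely. There were 37, 23 and 31 in Naïve_1, Naïve_2 and Naïve_3, and 44, 19 and 73 in EAE_3, EAE_4 and EAE_7. In the severe group EAE_5 had 85, EAE_6 had 4, EAE_1 had 2 and EAE_2 had 0, so that EAE_5 alone stood above every other mouse and the remaining severe mice stood below every naïve mouse. Footprints were seen in 10, 9 and 8 of the 10 genes in the naïve mice, in 8, 5 and 10 in EAE_3, EAE_4 and EAE_7, and in 10 in EAE_5. EAE_6 had footprints only in *Hnrnpk* and *Hnrnpf*, and EAE_1 only in *Hnrnpk*. Each of the 10 genes was footprinted in at least 1 mouse of every group, against 19.8% of 21951 protein-coding genes. Footprints in all 3 naïve mice were found in 7 of the 10 genes (9.35% of protein-coding genes) and in all 3 mild EAE mice in 5 of the 10 (8.48%). The shares of protein-coding genes footprinted were 29.5% in EAE_5, 5.46% in EAE_1, 1.8% in EAE_6 and 0.487% in EAE_2.

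Relative to all footprint nucleotides of the same mouse, cover of the 10 genes was 1360, 867 and 1200 nt per 1000000 in the naïve mice. It was 2380, 1416 and 2273 in EAE_3, EAE_4 and EAE_7, so each mild EAE mouse was above each naïve mouse on this scale. In severe EAE it was 394, 0, 1956 and 4132 in EAE_1, EAE_2, EAE_5 and EAE_6, a range that spans both other groups. The value of EAE_6 rests on 4 footprints. Footprints in introns count in this scale. Of all footprints in genes, 38.3%, 41.8% and 27.7% had an intronic midpoint in Naïve_1, Naïve_2 and Naïve_3. In EAE_3, EAE_4 and EAE_7 the shares were 10.7%, 23.2% and 18.4%. The part of this shift in the values was not tested, and genes that separate the same groups on this scale were not counted.

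**Figure D1:**
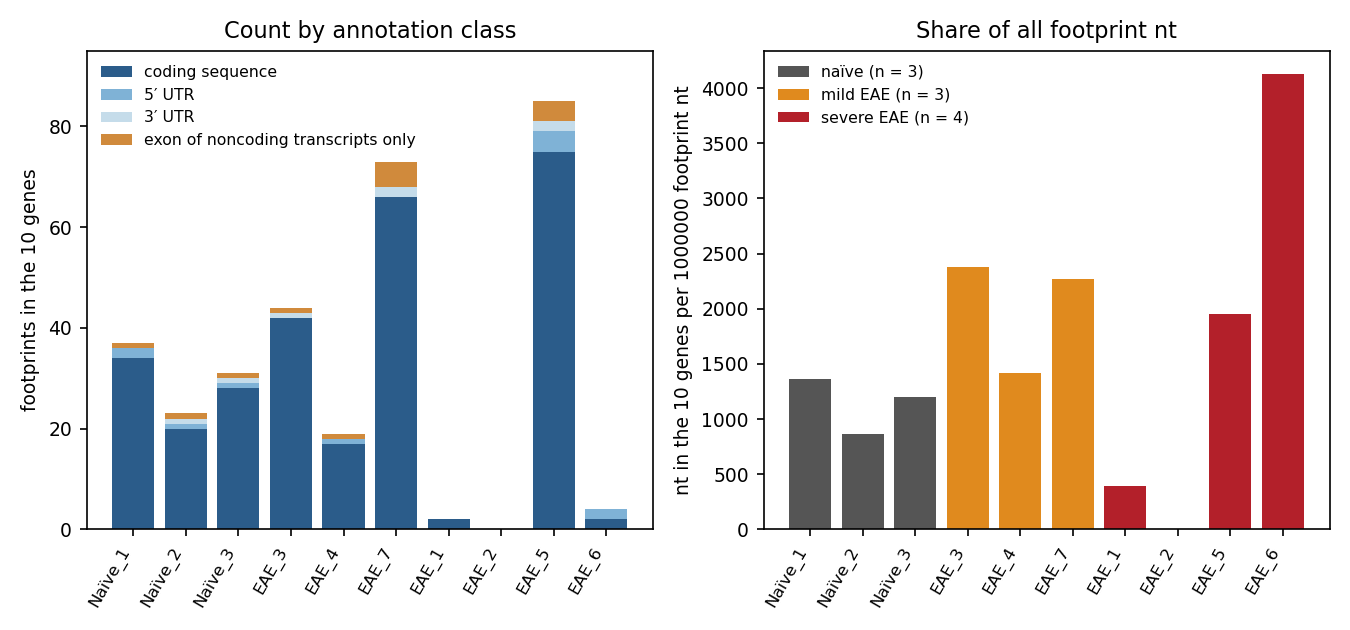
Left, number of footprints in the 10 hnRNP genes in each mouse, stacked by annotation class. Right, nucleotides in the 10 genes per 1000000 footprint nucleotides of the same mouse, coloured by group (3 naïve, 3 mild EAE and 4 severe EAE mice, 1 bar each). EAE_5 had the most footprints (85) and EAE_2 had 0, and coding sequence made up most of every bar except that of EAE_6.

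Nearly all footprints lay in exons. By midpoint, 286 of the 318 (89.9%) were in coding sequence, 11 in 5′ UTRs, 7 in 3′ UTRs and 14 in exons that belong only to noncoding transcripts of the same gene, and 0 were in introns outside every annotated exon. Among all 125162 footprints in genes, 25.2% had an intronic midpoint. The share in coding sequence was 90.1% in naïve mice (91 footprints) and 89.9% in EAE mice (227 footprints). The 14 noncoding ones were 9 in *Hnrnpl* and 5 in *Hnrnpu*. Footprints were short, with a median of 74.5 nt and a range of 16 to 363 nt.

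Footprint edges often coincided with exon edges. In 271 of the 318 footprints (85.2%) at least 1 end matched an annotated exon end to the nucleotide, against 52.6% of all footprints in genes. Per mouse the share over all footprints in genes ran from 19.3% in EAE_2 to 70.1% in EAE_3. In 70 of the 318 both ends matched, and these were whole exons. Junctions of the reference transcripts were reached from both sides by footprints of the same mouse 133 times and from a single side 56 times. *Hnrnpm* (98.2%) and *Hnrnpk* (96.6%) had the highest shares of footprints with such an end, and *Hnrnpf*, whose coding sequence lies in 1 large exon, the lowest (25.0%).

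Merged over the 10 mice, the footprints formed 126 regions. Of these, 46 (36.5%) were footprinted in at least 1 naïve and 1 EAE mouse, 33 (26.2%) in at least 2 EAE mice and no naïve mouse, 5 (3.97%) in at least 2 naïve mice and no EAE mouse, and 42 (33.3%) in 1 mouse. Over all 82220 regions of the genome the same classes held 20%, 9.61%, 2.24% and 68.1%. With 7 EAE and 3 naïve mice, the EAE-only class is easier to meet than the naïve-only class. Several of its regions were footprinted in EAE_7 and EAE_5 alone, the mice with the longest lists (24433 and 31870 footprints). The counts therefore give no gain or loss of sites. Regions footprinted in at least 5 mice were 19 of 126 (15.1%) in these genes and 4.12% overall. They were 6 in *Hnrnpm*, 3 each in *Hnrnpu*, *Hnrnpul1* and *Hnrnpul2*, and 2 each in *Hnrnpk* and *Hnrnpl*.

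**Figure D2:**
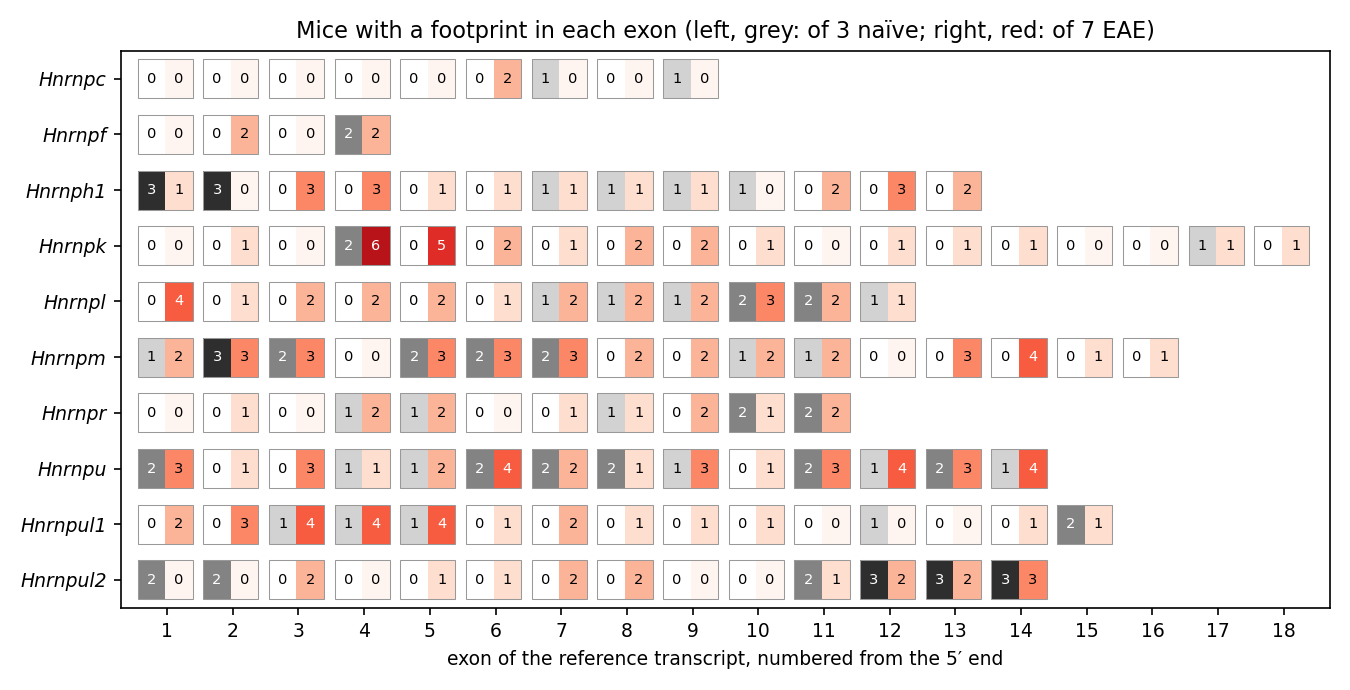
Number of mice with a footprint in each exon of the reference transcript (longest coding sequence), for the 10 genes. In each box the left number is out of 3 naïve mice and the right number out of 7 EAE mice, with darker shading for more mice, and footprints outside these exons are not drawn. *Hnrnpk* exon 4 was covered in 2 naïve and 6 EAE mice, and *Hnrnph1* exon 2 in 3 naïve and 0 EAE mice.

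Whether cover differed between EAE and naïve cords was tested for every gene by a two-sided exact permutation test of the difference in mean covered nt, over all 13948 genes with a footprint and with Benjamini-Hochberg adjustment over all of them. In EAE against naïve mice, 0 of the 10 genes reached an unadjusted p of 0.05, where 3.13% of all genes did, and 0 genes of the genome passed after adjustment. Among severe EAE and naïve mice 1.66% of all genes reached 0.05, and among severe and mild EAE 0.889%, with 0 of the 10 genes in both. Mild EAE against naïve cannot give a p below 0.1 (0% of all genes reached 0.05), severe EAE against either 3-mouse group none below 0.0286, and all EAE against naïve none below 0.00833. For each of the 10 genes the groups overlapped in each of the 4 comparisons, while over all genes 0.968% (EAE against naïve), 2.29% (severe against naïve), 5.07% (mild against naïve) and 1.39% (severe against mild) did not overlap. The 4 comparisons share mice, so they are not independent of each other.

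Mean cover was higher in EAE than in naïve mice for 7 of the 10 genes (46.3% of all genes), with a median difference of 34.0 nt against -11.6 nt over all genes. In mild EAE it was higher for 8 of the 10 genes (43.9% of all genes) and in severe EAE for 5 of the 10 (30.7% of all genes), while severe EAE exceeded mild EAE for 1 of the 10 (27.4% of all genes). The count of 7 rested on EAE_5, as it was 3 without that mouse, and it was 9 without EAE_1, EAE_2 and EAE_6, the mice with the shortest lists. On a log2(covered nt + 1) scale it was 1, and per 1000000 mapped unique reads also 1. No direction can therefore be given for the genes as a set.

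**Figure D3:**
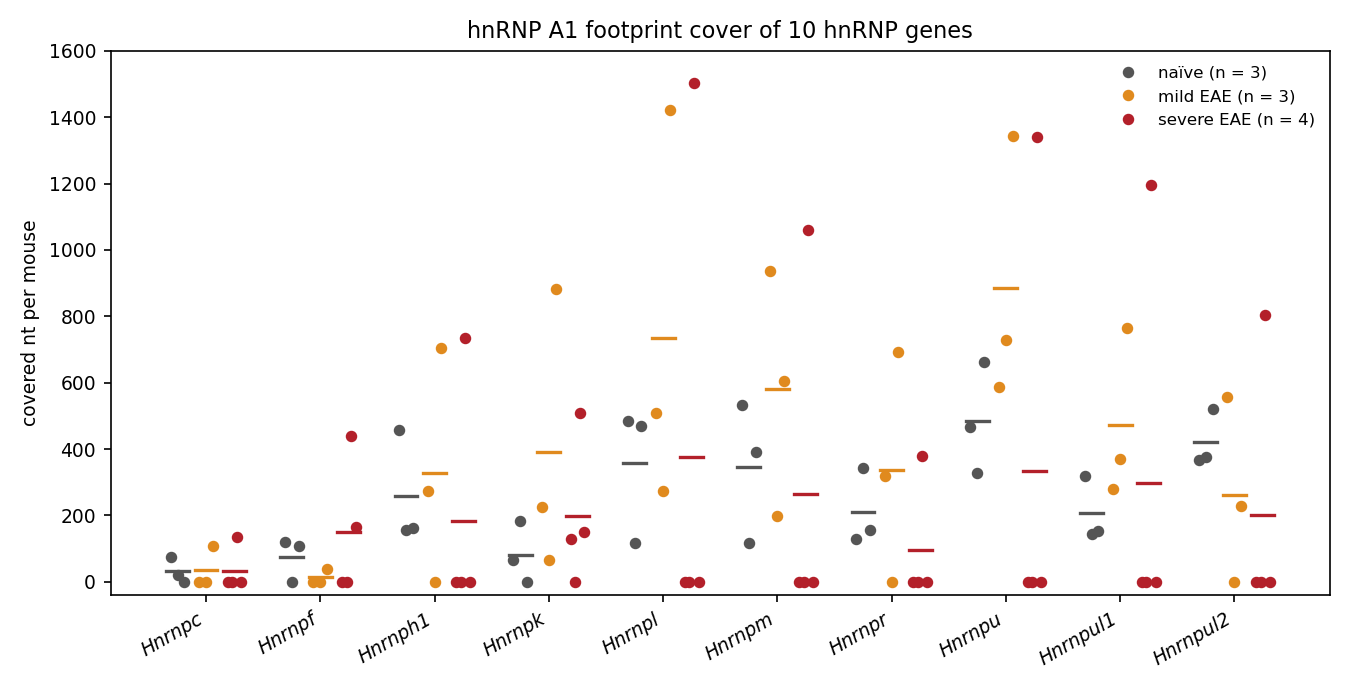
Covered nucleotides per mouse in each of the 10 genes, with 1 point per mouse and a bar at the mean of 3 naïve, 3 mild EAE and 4 severe EAE mice. In 8 of the genes the severe group consists of 3 mice at 0 and EAE_5, and the 3 groups overlap in every gene.

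hnRNP K, a KH-domain protein that binds cytidine-rich RNA, was the most often footprinted of the set by mouse count. *Hnrnpk* (chr13:58391142-58403343, minus strand, 29 footprints) had 65, 182 and 0 covered nt in Naïve_1 to Naïve_3. It had 225, 66 and 883 nt in EAE_3, EAE_4 and EAE_7, and 130, 0, 510 and 150 nt in EAE_1, EAE_2, EAE_5 and EAE_6. EAE_3, EAE_7 and EAE_5 were above the naïve range and the other 4 EAE mice within it. The means were 82.3 ± 92.2 (SD, n = 3) in naïve and 281 ± 312 (SD, n = 7) in EAE mice, so that EAE exceeded naïve by 198 nt, which was not significant (exact permutation p = 0.333, adjusted p = 1).

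Within *Hnrnpk* the footprints were not spread evenly. Exon 4 of the 18 exons of Hnrnpk-202, which holds the start codon, was footprinted in Naïve_1, Naïve_2 and in 6 EAE mice, that is in every mouse except Naïve_3 and EAE_2. It was the only stretch of any of the 10 genes covered in 8 mice. The next exon, exon 5, was footprinted in EAE_1, EAE_3, EAE_5, EAE_6 and EAE_7 and in no naïve mouse, a pattern (at least 5 EAE mice, no naïve mouse) that 84 of 82220 regions showed (0.102%) and 1 of the 126 here (0.794%). These 2 exons also carried the only footprints of EAE_1 in the 10 genes. Of exons 6 to 18, exon 6 was footprinted in EAE_3 and EAE_7, exon 17 in Naïve_2 and EAE_7, and the others in EAE_7, EAE_5, both or none.

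Near-identical copies bear on the *Hnrnpk* values. By sequence search of the genome (at least 95% identity over at least 90% of the length), 13 of its 14 regions had a copy elsewhere, in the processed pseudogenes Gm7964 (chr7:83755904-83757281) and Gm4130 (chr13:91261449-91262418). The copies of 12 of 13 regions in Gm7964 were themselves footprinted in at least 1 mouse. Gm7964 had 115 nt in Naïve_2, 214 in EAE_3, 440 in EAE_7, 124 in EAE_1, 283 in EAE_5 and 144 in EAE_6, and 0 in the others. At exons 4 and 5 the copy was footprinted in EAE_3, EAE_1 and EAE_6, each of which also had the footprint in *Hnrnpk*. Which of the copies the RNA came from cannot be told apart there. For regions without a copy the EAE minus naïve difference of *Hnrnpk* was 10.1 nt in place of 198 nt. That value rests on 1 footprint of 71 nt in EAE_5, in 5′ UTR of exon 2, which also overlapped *Rmi1*.

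hnRNP L, an RRM protein that binds CA-rich RNA and regulates splicing of its own transcript, showed the most widely shared footprint outside coding sequence. *Hnrnpl* (chr7:28808541-28822266, plus strand, 43 footprints) had 486, 116 and 470 covered nt in the naïve mice. It had 510, 274 and 1423 nt in EAE_3, EAE_4 and EAE_7 and 1503 nt in EAE_5, with 0 in the other 3 severe mice. EAE_7 and EAE_5 lay at about the same level and well above the rest. The means were 357 ± 209 (SD, n = 3) in naïve and 530 ± 665 (SD, n = 7) in EAE mice, and the difference was not significant (exact permutation p = 0.800).

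A region in intron 6 of Hnrnpl-209 (chr7:28816405-28816628) was footprinted in 7 mice, which were all naïve mice, all mild EAE mice and EAE_5. It lies 1052 nt downstream of exon 6 and 1832 nt upstream of exon 7, and the annotation places it only inside exons of 2 retained-intron transcripts, Hnrnpl-206 and Hnrnpl-212. It held 38 CA dinucleotides in 224 nt, or 170 per 1000 nt, against a median of 66.2 over the 126 regions, and 1 UAG. A further region of the same intron (chr7:28815908-28816117) was footprinted in EAE_7 and EAE_5 and held 3 UAG and 57.1 CA per 1000 nt, below that median. No near-identical copy of either was found.

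The coding exons of *Hnrnpl* were footprinted in a different set of mice. Exon 1 was footprinted in EAE_3, EAE_4, EAE_7 and EAE_5 and in no naïve mouse. Exons 2 to 6 were footprinted in EAE_7, EAE_5 or both, while exons 10 and 11 were footprinted in Naïve_1, Naïve_3, EAE_3 and EAE_5, and exon 10 also in EAE_7. The 2 regions with a copy, in exons 7 and 8, matched the pseudogene Gm45246, which had 0 nt in all mice.

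hnRNP H1 and hnRNP F are close relatives that bind runs of guanine and regulate splicing. *Hnrnph1* (chr11:50376990-50386528, plus strand, 31 footprints) had 458, 155 and 161 covered nt in the naïve mice. It had 275, 0 and 705 nt in EAE_3, EAE_4 and EAE_7 and 734 nt in EAE_5, with 0 in EAE_1, EAE_2 and EAE_6. The totals of naïve and EAE mice differed little (258 ± 173, SD, n = 3 in naïve and 245 ± 340, SD, n = 7 in EAE mice, exact permutation p = 0.917), but several exons were footprinted in 1 of the groups only.

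Exon 2 of *Hnrnph1*, which holds its start codon (region chr11:50378291-50378417), had a footprint in each of the 3 naïve mice and in none of the EAE mice, a pattern found in 201 of 82220 regions (0.244%) and in 1 of the 126 regions here (0.794%). The 5′ UTR part of exon 1 was footprinted in the same 3 mice and in EAE_5. Exons 3, 4 and 12 were footprinted in EAE_3, EAE_7 and EAE_5 and in no naïve mouse, and at least 3 EAE mice with no naïve mouse was the pattern of 2.86% of all regions and of 11 of the 126 regions here (8.73%). Exons 7, 8 and 9 were footprinted in Naïve_1 and in EAE_5 (7 and 8) or EAE_7 (9), and exon 10 in Naïve_1 only. Of the 14 regions 3 had a near-identical copy. That of the exon 10 region lies elsewhere in *Hnrnph1* and was footprinted in EAE_7, so the place of origin cannot be told apart. The others, in exon 11 and in intron 12 of the reference transcript, matched the pseudogene Gm49168, which had 183 nt in EAE_5. Counts per region are of presence in few mice and had no test of their own.

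*Hnrnpf* (chr6:117900324-117925622, plus strand) had only 8 footprints. Its covered nt were 121, 0 and 108 in the naïve mice, 0, 0 and 40 in EAE_3, EAE_4 and EAE_7, and 439 in EAE_5 and 164 in EAE_6. Naïve footprints lay in coding sequence (chr6:117924227-117924353, Naïve_1 and Naïve_3), whereas those of EAE_6 lay in 5′ UTRs. Both 5′ UTR regions also overlapped genes annotated on the opposite strand, *Gm43863* and *4933440N22Rik* respectively for exon 2 and for the region before it, and without strand the transcript cannot be told apart. The coding region of the naïve mice had copies in 6 places, of which 5 (Gm6430, Gm12435, Gm7446, Gm7803 and Gm14970) were footprinted in the same 2 mice. The copy in Gm7446 was also footprinted in EAE_4 and EAE_5, so this sequence was not covered in naïve mice only. All 4 regions in the last exon had at least 4 copies. Without regions that have copies the EAE minus naïve difference was 46.3 nt in place of 15.5 nt. The mean was 76.3 ± 66.4 (SD, n = 3) in naïve and 91.9 ± 164 (SD, n = 7) in EAE mice (exact permutation p = 0.908).

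**Figure D4:**
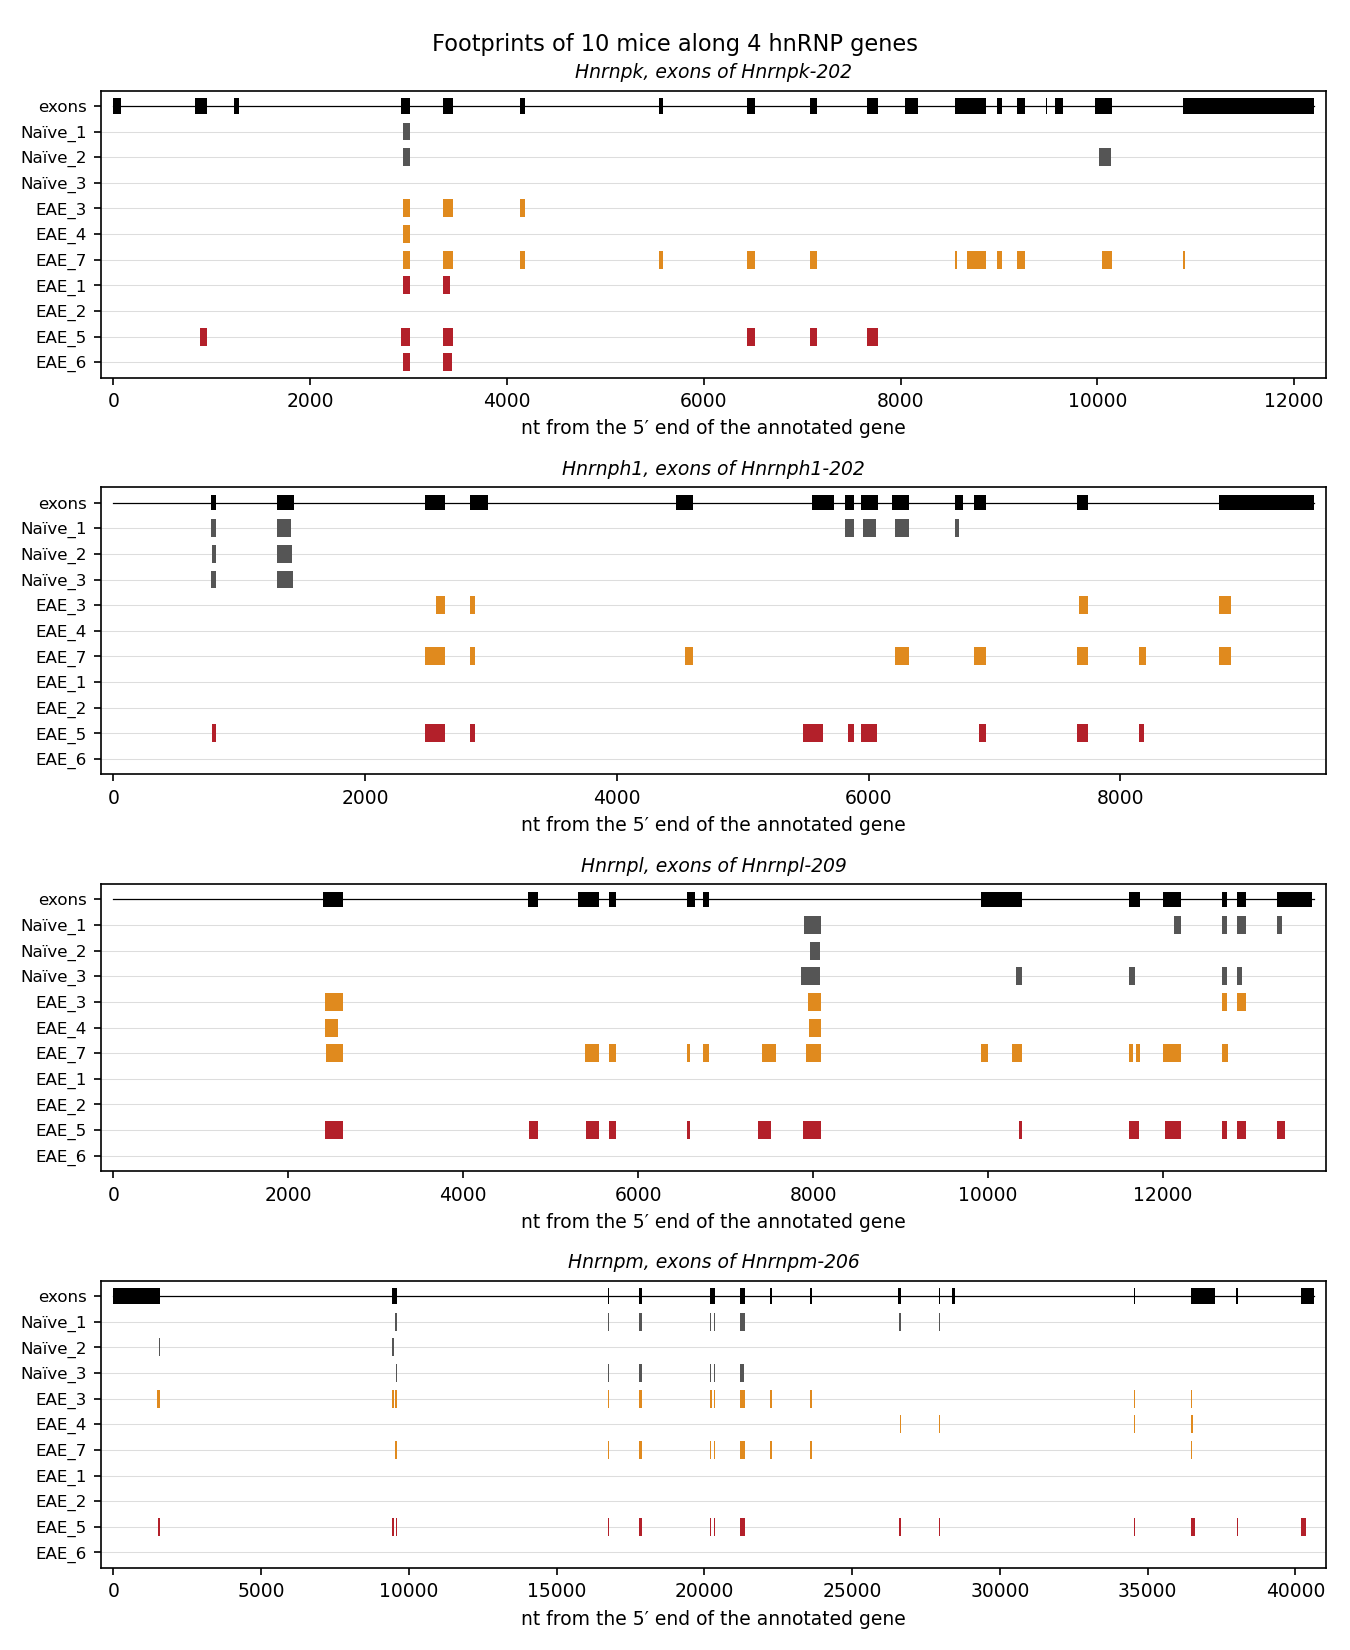
Footprints of each mouse along *Hnrnpk*, *Hnrnph1*, *Hnrnpl* and *Hnrnpm*, in nt from the 5′ end of the annotated gene, coloured by group (grey naïve, orange mild EAE, red severe EAE), with the exons of the reference transcript in black. *Hnrnpk* exons 4 and 5 line up across mice, *Hnrnph1* exon 2 is covered in the 3 naïve mice only, and the intronic block of *Hnrnpl* is covered in 7 mice.

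hnRNP M, which binds GU-rich RNA and regulates splicing, had footprints in 7 mice. *Hnrnpm* (chr17:33646233-33686860, minus strand, 55 footprints) had 533, 117 and 392 covered nt in the naïve mice, 936, 199 and 604 nt in EAE_3, EAE_4 and EAE_7, and 1060 nt in EAE_5 and 0 in the other severe mice. All 55 footprints were in coding sequence and 22 spanned a whole exon. The same 5 mice (Naïve_1, Naïve_3, EAE_3, EAE_7 and EAE_5) shared 6 regions in exons 2, 3, 5, 6 and 7. Exon 14 was footprinted in EAE_3, EAE_4, EAE_7 and EAE_5 and in no naïve mouse. The means were 347 ± 212 (SD, n = 3) and 399.9 ± 463 (SD, n = 7) in naïve and EAE mice (exact permutation p = 0.808), and 0 of its 16 regions had a copy elsewhere.

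hnRNP R, a protein of axonal RNA transport in motor neurons, had 19 footprints in *Hnrnpr* (chr4:136310942-136359447, plus strand), all in coding sequence. The values were 130, 342 and 157 nt in the naïve mice, 319, 0 and 691 nt in EAE_3, EAE_4 and EAE_7, and 379 nt in EAE_5 with 0 in the other severe mice. The means were 209.7 ± 115 (SD, n = 3) in naïve and 198 ± 273 (SD, n = 7) in EAE mice (exact permutation p = 0.992). No region was footprinted in more than 3 mice. Of its 9 regions 8 had a copy in the processed pseudogene Gm6159 (chr1:78783136-78784859), and all 8 copies were footprinted. Gm6159 had 109, 351 and 226 nt in the naïve mice, 683 nt in EAE_7 and 387 nt in EAE_5, and 0 in EAE_3, where *Hnrnpr* had 319 nt.

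hnRNP C, which binds uridine tracts of nascent transcripts, was the least covered, with 4 footprints in *Hnrnpc* (chr14:52073377-52104028, minus strand). Naïve_1 had 74 nt in exon 9 and Naïve_2 had 22 nt in exon 7, a region with 22 near-identical copies elsewhere, so its origin cannot be told apart, while EAE_7 had 107 nt and EAE_5 135 nt in exon 6. The naïve and EAE mice shared no region of this gene, and the mean was 32 nt in naïve and 34.6 nt in EAE mice (exact permutation p = 1).

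hnRNP U, also called scaffold attachment factor A, binds RNA and chromatin, and hnRNP UL1 and UL2 are related to it. *Hnrnpu* (chr1:178321108-178337797, minus strand) had the most footprints, 63. Its covered nt were 466, 327 and 662 in the naïve mice, 586, 728 and 1343 in EAE_3, EAE_4 and EAE_7 and 1339 in EAE_5, with 0 in the other severe mice. All 14 exons of Hnrnpu-201 were footprinted in at least 1 mouse. Exon 6 was covered in 6 mice, and single regions in exons 12 and 13 in 5. The means were 485 ± 168 (SD, n = 3) in naïve and 571 ± 604 (SD, n = 7) in EAE mice (exact permutation p = 0.85). Mild EAE alone had a mean of 886 nt (exact permutation p = 0.200 against naïve).

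Downstream of the end of Hnrnpu-201, 3 regions of *Hnrnpu* were footprinted in EAE mice and in no naïve mouse. They lie in exons of processed or nonsense-mediated-decay transcripts (chr1:178321372-178321537, chr1:178323147-178323195 and chr1:178323620-178323715). The first was footprinted in EAE_7, and the others in EAE_7 and EAE_5. The first also overlapped *Cox20*.

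*Hnrnpul1* (chr7:25721165-25754757, minus strand, 31 footprints) had 320, 145 and 153 nt in the naïve mice, 279, 370 and 765 nt in EAE_3, EAE_4 and EAE_7, and 1196 nt in EAE_5 and 0 in the other severe mice. Exons 3, 4 and 5 were each footprinted in Naïve_1, EAE_3, EAE_4, EAE_7 and EAE_5. Exon 2 was footprinted in EAE_3, EAE_4 and EAE_5 and in no naïve mouse. The means were 206 ± 98.8 (SD, n = 3) and 373 ± 458 (SD, n = 7) in naïve and EAE mice (exact permutation p = 0.650).

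*Hnrnpul2* (chr19:8820010-8834143, plus strand, 35 footprints) was the member with the largest lower mean in EAE. It had 366, 375 and 521 nt in the naïve mice, 556, 0 and 228 nt in EAE_3, EAE_4 and EAE_7, and 804 nt in EAE_5 with 0 in the other severe mice. EAE_3 and EAE_5 were above all naïve mice and the other 5 EAE mice below them. The means were 421 ± 87.0 (SD, n = 3) in naïve and 227 ± 328 (SD, n = 7) in EAE mice, and the difference of -194 nt was not significant (exact permutation p = 0.375, adjusted p = 1). Per 1000000 mapped unique reads its exact permutation p was 0.0333 (adjusted p = 0.407), the only one of the 10 genes under 0.05 in any alternative. The share of all genes under 0.05 on that scale was not counted, so 1 of 10 cannot be set against it.

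Some exons of *Hnrnpul2* were footprinted in naïve mice only or in EAE mice only, in few mice each, and placement along the gene was not tested. Exons 12, 13 and 14 were footprinted in all 3 naïve mice, and also in 2, 2 and 3 EAE mice. Exons 1 and 2 were footprinted in Naïve_1 and Naïve_3 and in no EAE mouse. Exons 3, 5, 6, 7 and 8 were footprinted in EAE_3, EAE_5 or both and in no naïve mouse. Footprints from exon 11 onwards also lie in the overlapping gene *AC129217.1* on the same strand. When footprints shared with other genes were left out, the EAE minus naïve difference was -10.5 nt.

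Naïve mice had 28 stretches that 2 or more of them shared, mild EAE mice 35 and severe EAE mice 3, lying in 9, 8 and 2 of the 10 genes. Over the protein-coding genes of the annotation, 10.6%, 12.4% and 3.23% had such a stretch. The 3 stretches of severe EAE were *Hnrnpk* exons 4 and 5 (EAE_1, EAE_5 and EAE_6) and the *Hnrnpf* 5′ UTR (EAE_5 and EAE_6). Both *Hnrnpk* stretches have a copy in Gm7964 that was footprinted in EAE_1 and EAE_6, and without regions that have copies the severe EAE count was 1. *Hnrnpul2* had 7 of the naïve stretches and 1 of the mild EAE stretches, while *Hnrnpm* had 6 and 10 and *Hnrnpu* 6 and 8. With 1 mouse left out, both remaining naïve or mild EAE mice had to share a stretch, so lower counts follow from the rule. The naïve count was then 9 without Naïve_3 and 12 without Naïve_1. The mild EAE count was 10 without EAE_3 and 13 without EAE_7.

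Over all mice, footprints covered 75.5% of the annotated coding sequence of *Hnrnph1*, 74.2% of *Hnrnpl*, 69.7% of *Hnrnpk* and 65.2% of *Hnrnpu*. They covered 60.2% of *Hnrnpul1*, 58.0% of *Hnrnpr*, 52.4% of *Hnrnpm* and 51.6% of *Hnrnpul2*, and only 26.3% of *Hnrnpf* and 21.6% of *Hnrnpc*. The 3 naïve mice together covered 37.0% of *Hnrnpu*, the highest naïve value, and 10.2% of *Hnrnpf* and of *Hnrnpc*, the lowest.

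UAG was less dense inside these footprints than beside them. On the strand of the gene, UAG occurred 158 times in 28079 footprint nt, or 5.63 per 1000 nt, against 13.0 per 1000 nt in windows as long as the footprint, placed 200 nt to its left and right (log2 ratio -1.20). The footprint value was below the window value in each of the 9 mice with a footprint in these genes. The log2 ratio was -0.82 in naïve and -1.33 in EAE mice. Of the window nucleotides 39.0% lay in annotated exons of the same gene, and the whole annotated coding sequence of the 10 genes held 4.97 UAG per 1000 nt, near the density in the footprints. At least 1 UAG was found in 53 of the 126 regions (42.1%) and in 174 of 252 windows as long as the region (69.0%). AGGU was at 3.06 per 1000 nt in footprints and 3.81 in the windows (log2 ratio -0.32), with no single direction over mice, as the log2 ratio ran from -0.94 in Naïve_1 to 0.42 in EAE_6.

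**Figure D5:**
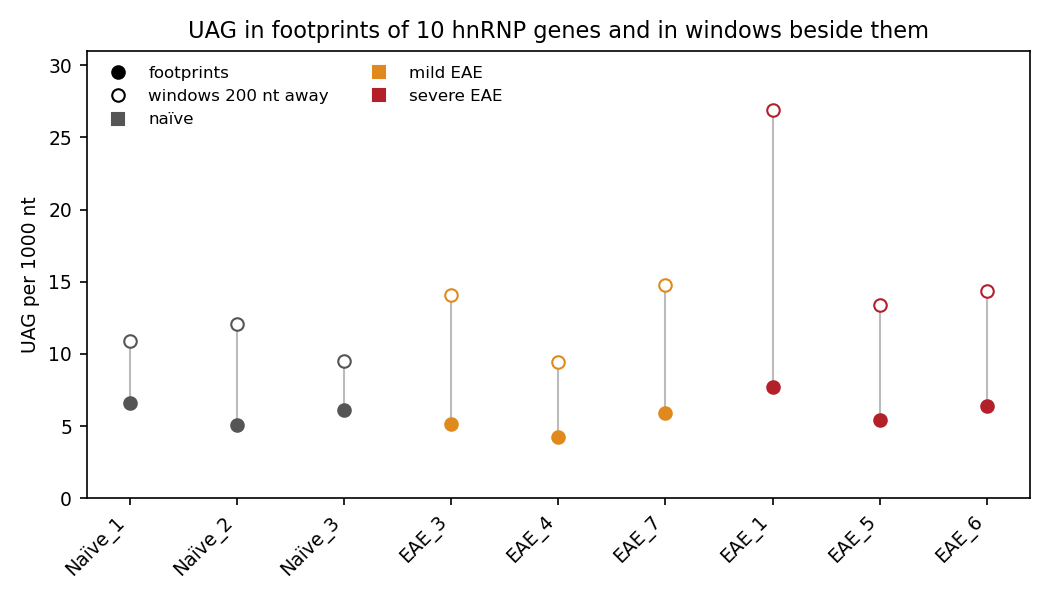
UAG per 1000 nt on the strand of the gene in footprints of the 10 genes (filled) and in same-length windows 200 nt away (open), for the 9 mice with a footprint in these genes, coloured by group. Filled points lie between 4.28 and 7.69, and each is below the open point of the same mouse.

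Genes of related proteins held footprints too. Examined were *Hnrnph2*, *Hnrnph3*, *Grsf1*, *Hnrnpll*, *Ptbp1*, *Ptbp2*, *Ptbp3*, *Raly*, *Ralyl*, *Pcbp1*, *Pcbp2*, *Pcbp3*, *Pcbp4*, *Syncrip*, *Myef2*, *Safb*, *Safb2* and *Sltm*. All 18 had a footprint, 13 in naïve, 16 in mild and 14 in severe EAE mice. Among protein-coding genes 45.6% had a footprint in any mouse. The most nucleotides over 10 mice were in *Ralyl* (16915), *Safb2* (7945), *Safb* (5282) and *Sltm* (3976), counted over the gene span and not scaled to its length. In EAE against naïve mice 9 had a higher and 9 a lower mean (46.3% of all genes were higher), and 1 of the 18 reached an unadjusted p of 0.05 (3.13% of all genes). That gene was *Pcbp3*, a relative of hnRNP K, with means of 158 nt in naïve and 6.71 nt in EAE mice (exact permutation p = 0.00833, the smallest possible), named after its value was seen. It did not pass the adjustment, as the smallest adjusted p of any gene was 0.930.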

How the data were processed

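Spinal cord CLIPseq footprints of 10 mice were analysed, with 1 list per mouse. Per the labels, the methods and the submitters' processing notes, the authors trimmed reads (fastp), built contigs from them (rnaSPAdes), placed the contigs on GRCm38 as spliced alignments (minimap2 2.17), subtracted input and IgG sites (bedtools) and joined sites that overlapped. The deposited files give positions, that is chromosome, start and end, with no strand, score or count. Inputs and IgG libraries were not analysed here.

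Of the 136207 footprints, 135636 lay on chromosomes of GRCm38 and 0 ran past an end. Genes were those of GENCODE release M 21. Covered nt was the number of nucleotides of a gene under footprints of a mouse, a footprint's class was that of its midpoint, and a shared stretch needed 2 mice and 2 nt. Differences between group means were assessed per gene with an exact permutation of the mice (two-sided, 120 splits for EAE against naïve), adjusted by Benjamini-Hochberg over 13948 genes. The labels do not tie mice of different groups to each other. On simulated data the test recovered 200 of 200 seeded genes among 5000, and the stretch search 200 of 200 among 5200 sites. The seeded genes had groups that did not overlap, and recovery meant the smallest possible unadjusted p. This checks the computation only and gives no power for groups that overlap. Copies were sought with blastn 2.17.0. Python 3.11.15, numpy 2.4.6, pysam 0.24.0, samtools 1.23.1 and matplotlib 3.10.9 were used.

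The 10 genes, the other lists and the tests were chosen with earlier results of these data known. The rule for names covered the 10 genes, genes sharing a footprint with them, and up to 4 genes of related proteins with the most covered nt. The pseudogenes and *Pcbp3* were named after their values were seen. Sequences shown are the stretches in the most mice outside UTRs (6 nt of 5′ UTR remain in *Hnrnpk* exon 4), and the 2 EAE-only exons were added. Alternatives covered scaling (also by the mapped unique reads of each library in the study's own supplementary list, read from a page text), footprint length, gene limits, overlapping genes and each mouse left out. Those without EAE_1, EAE_2 and EAE_6 and without regions that have copies were chosen after seeing the data.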

Additional observations from a re-analysis of the deposited data

Results flagged for a closer look

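In the severe EAE group of 4 mice, EAE_5 stood far from the other 3 in 10 of 14 measures tested, by Dixon's criterion (the gap to the nearest mouse divided by the group's range, against its critical value). Chance flags about 1 in 20 groups in general, but that rate does not apply to the 8 single genes, where the other 3 mice were all at 0 and any cover in the fourth meets the criterion. EAE_5 had 135 covered nt in *Hnrnpc*, 734 in *Hnrnph1*, 1503 in *Hnrnpl*, 1060 in *Hnrnpm*, 379 in *Hnrnpr*, 1339 in *Hnrnpu*, 1196 in *Hnrnpul1* and 804 in *Hnrnpul2*, where the other severe mice had 0. It had 8099 covered nt in the 10 genes together and 85 footprints. *Hnrnpf* and *Hnrnpk*, in which EAE_6 also had footprints, did not meet the criterion. EAE_5 had 31870 footprints over the genome and the other severe mice 209 to 2670, and the part of list size in these values was not tested. The paper already describes this mouse as an outlier of the severe group. It reports that its binding profile resembled those of naïve and mild EAE mice and that a reproducibility analysis flagged it. According to the paper, the mouse had been in remission shortly before the experiment ended.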

How the results depend on the processing

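Adjusted p of every one of the 10 genes was 0.407 or higher under every alternative that gave one. Among alternatives other than leaving out a mouse, 25 values reversed sign, including 6 of the replicate block described below, and 9 counts or shares moved. Some that kept their sign were much smaller: *Hnrnpk* fell from 198 to 10.1 nt without copied regions, *Hnrnpul2* went from -194 to -10.5 nt for footprints that overlap no other gene and to -23.7 nt without EAE_1, EAE_2 and EAE_6, and *Hnrnpm* went from 52.5 to 5.52 nt with 1000 nt added on both sides of genes. Per 1000000 mapped unique reads, 1 gene (*Hnrnpul2*, -79.9) had an exact permutation p of 0.0333, and the share of all genes under 0.05 was not counted. On that scale 1 gene was higher in EAE. The EAE minus naïve difference there turned to -3.99 for *Hnrnpc*, -3.14 for *Hnrnpf*, -11.5 for *Hnrnpl*, -20.7 for *Hnrnpm*, -42.7 for *Hnrnpu* and -4.43 for *Hnrnpul1*. On the log2(covered nt + 1) scale the same genes were at -1.61, -1.49, -2.78, -2.93, -3.22 and -2.38, again with 1 gene higher. *Hnrnpc* was at -4.90 per 1000000 footprint nt, -0.381 by number of footprints and -1.43 nt over exons only, and *Hnrnpf* at -30.8 nt for footprints that overlap no other gene. Without EAE_1, EAE_2 and EAE_6, *Hnrnph1* was at 170.5 nt and *Hnrnpr* at 138 nt, and 205 genes in place of 437 reached 0.05. With those mice left out the smallest exact permutation p is 0.0286 in place of 0.00833, so these counts are not directly comparable. For regions without a copy, *Hnrnpr* was at 22.1 nt and severe EAE had 1 shared stretch. Without copied regions, the *Hnrnpr* value rests on 1 footprint of 155 nt in EAE_7 and that of *Hnrnpk* on 1 of 71 nt in EAE_5. Requiring 3 mice left 6 naïve and 8 mild EAE stretches. The share outside exons was 0.744% of covered nt, and 4.40% of footprints lay outside exons of protein-coding transcripts. The causes were not tested.

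The replicate block paired Naïve_1 to Naïve_3 with EAE_1 to EAE_3 by number, which no label ties together, and left out EAE_4 to EAE_7. Of the EAE mice kept, EAE_1 and EAE_2 had short lists (2670 and 209 footprints). In this block *Hnrnpc* was at -32.0 nt, *Hnrnpf* at -76.3 and *Hnrnpl* at -187. *Hnrnpm* was at -35.3, *Hnrnpu* at -289.7 and *Hnrnpul1* at -113. No exact permutation p was under 0.25, the smallest possible.

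Leaving out 1 mouse at a time gave differences of -14.2 to 23.6 nt for *Hnrnpc*, -42.3 to 37.9 for *Hnrnpf*, -94.7 to 86.9 for *Hnrnph1*, 97.8 to 248 for *Hnrnpk*, 10.5 to 261 for *Hnrnpl*, -62.6 to 145 for *Hnrnpm*, -93.3 to 54.9 for *Hnrnpr*, -42.8 to 181 for *Hnrnpu*, 29.7 to 229 for *Hnrnpul1* and -290.0 to -144 for *Hnrnpul2*. From 3 (without EAE_5) to 9 genes were higher in EAE, 0 reached 0.05, and 323 to 762 genes of the genome did (762 without EAE_5). The smallest exact permutation p was 0.0278 with a naïve mouse left out and 0.0119 with an EAE mouse left out, so these counts are not directly comparable. Shared stretches ranged from 9 to 19 in naïve, 10 to 28 in mild and 2 to 3 in severe EAE, with fewer mice left to share one. The UAG log2 ratio ranged from -0.91 to -0.69 in naïve, -1.35 to -1.31 in EAE and -1.26 to -1.16 in all mice, and intronic footprints stayed at 0.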
